A study of Mus musculus with 16 samples.

Results

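The 10 genes Acly, Acaca, Fasn, Scd1, Scd2, Fads1, Fads2, Elovl5, Elovl6 and Acsl3 encode enzymes that make, desaturate, elongate and activate fatty acids. They were listed by name for their known function, with earlier results of these data known, and matched by symbol among 53465 genes measured by bulk RNA-seq. All 10 were found, and all 10 passed the filter on low counts that left 18251 genes for testing. The samples were 16 subcutaneous MC38 tumors, 1 per mouse. MC38 is a mouse colorectal carcinoma cell line, and its cells were injected into the flank of female C57BL/6 mice aged 6 to 8 weeks. Mice whose tumors measured 150 to 250 mm3 on day 16 were randomly assigned to control IgG or to aPD-1, an antibody that blocks the T cell checkpoint receptor PD-1. Both were given at 200 ug on days 16 and 20, and tumors were taken on day 21. There were 8 IgG control tumors (replicates 1 to 8), 6 aPD-1 non-responders (replicates 9 to 14) and 2 aPD-1 responders (replicates 15 and 16). The study set the response label from CD8 T cell staining of the treated tumors themselves, so this division was not randomized.

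Cells build fatty acids from cytosolic acetyl-CoA. ATP citrate lyase (Acly) releases acetyl-CoA from citrate, acetyl-CoA carboxylase 1 (Acaca) turns it into malonyl-CoA, and fatty acid synthase (Fasn) joins these units into palmitate. Stearoyl-CoA desaturases (Scd1, Scd2) place a double bond in saturated chains, the desaturases encoded by Fads1 and Fads2 add further bonds to polyunsaturated chains, Elovl5 and Elovl6 lengthen chains, and Acsl3 couples free fatty acids to coenzyme A. The transcription factors SREBP1 and SREBP2 (Srebf1, Srebf2), the oxysterol receptor LXR alpha (Nr1h3) and the glucose-responsive factor ChREBP (Mlxipl) are the main known activators of these genes. In mice Scd1 is abundant in fat, skin and induced liver, and fat cells run the whole pathway, so a tumor piece that includes fat can bring lipogenic RNA that is not from tumor cells.

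Levels are given as CPM, the count of a gene relative to the total count of its tumor after TMM scaling, and the total counts lay between 26603449 and 39948866 per tumor. A fat cell score was formed for each tumor as the mean log2 CPM of 8 genes typical of fat cells, none of them among the 10: Adipoq, Plin1, Cidec, Cfd, Retn, Lep, Plin4 and Adrb3. The score was 7.06 in responder 15 and 4.50 in responder 16, against -2.45 to 2.66 in the IgG controls and -1.45 to 2.16 in the non-responders. The summed level of the 8 genes was 2043 and 326 CPM in the responders, 1.76 to 105 CPM in the IgG controls and 4.56 to 72.0 CPM in the non-responders, and all 8 were detected in each group. Both responders therefore lay outside the range of the other 14 tumors in fat cell RNA. They also lay outside it in the summed level of 5 B cell markers (242 and 908 CPM against at most 6.03), of 5 T cell markers (162 and 173 CPM against at most 25.6), of 5 epithelial markers (50.4 and 116 CPM against at most 11.9) and of 5 endothelial markers (188 and 332 CPM against at most 173). Of the endothelial markers, only Pecam1 was higher in both responders without overlap (109 and 189 CPM against at most 77.3). Cdh5, Vwf, Kdr and Emcn overlapped with the other tumors. Epcam, a defining epithelial marker, was below 1 CPM in each of the other 14 tumors (0.0608 to 0.942 CPM), although the cell line is labelled a carcinoma. The share of counts from mitochondrial genes was highest for IgG control 1 (7.60%), non-responder 9 (6.00%) and non-responder 14 (5.73%), against 2.52% to 3.25% elsewhere. Bulk RNA cannot tell fewer cells of a type from less RNA per cell. The cell types and the mitochondrial share move with several results below, and where no value is given their part was not tested.

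The genes lie on chromosomes 1, 3, 9, 11 and 19 (GRCm38, GENCODE). Acly (ENSMUSG00000020917, chr11:100476353-100528000, minus strand), Acaca (ENSMUSG00000020532, chr11:84129672-84401651, plus strand) and Fasn (ENSMUSG00000025153, chr11:120805846-120824547, minus strand) share chromosome 11 at a distance from each other. Scd1 (ENSMUSG00000037071, chr19:44394455-44407879, minus strand) and Scd2 (ENSMUSG00000025203, chr19:44293674-44306864, plus strand) are close neighbours on chromosome 19. Fads1 (ENSMUSG00000010663, chr19:10182888-10196877, plus strand) and Fads2 (ENSMUSG00000024665, chr19:10062765-10101746, minus strand) form another pair on that chromosome. Elovl5 (ENSMUSG00000032349) lies at chr9:77917364-77984519 on the plus strand, Elovl6 (ENSMUSG00000041220) at chr3:129532355-129638495 on the plus strand, and Acsl3 (ENSMUSG00000032883) at chr1:78657825-78707743 on the plus strand.

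Promoter windows from RefSeq (GRCm38.p6, 250 bases before to 50 after the start) were at hand for 7 of the 10 genes, all but Scd1, Scd2 and Fads1. The windows of Acly and Fads2 are shown because these genes had nearly the same pattern over the tumors, and that of Fasn because its pattern differed from theirs. They lie on the minus strand at chr11:100527951-100528250, chr19:10101454-10101753 and chr11:120824498-120824797, and are written 5′ to 3′ along the gene. Capitals mark CCAAT boxes, known to be bound by NF-Y, and GC boxes with the letters GGGCGG, known to be bound by Sp1, on either strand.
Acly: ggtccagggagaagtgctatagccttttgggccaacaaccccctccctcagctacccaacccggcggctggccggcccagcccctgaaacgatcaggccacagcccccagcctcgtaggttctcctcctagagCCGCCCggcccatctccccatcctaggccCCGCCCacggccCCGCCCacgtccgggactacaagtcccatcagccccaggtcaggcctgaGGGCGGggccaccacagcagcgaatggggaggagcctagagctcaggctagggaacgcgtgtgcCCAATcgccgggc
Fads2: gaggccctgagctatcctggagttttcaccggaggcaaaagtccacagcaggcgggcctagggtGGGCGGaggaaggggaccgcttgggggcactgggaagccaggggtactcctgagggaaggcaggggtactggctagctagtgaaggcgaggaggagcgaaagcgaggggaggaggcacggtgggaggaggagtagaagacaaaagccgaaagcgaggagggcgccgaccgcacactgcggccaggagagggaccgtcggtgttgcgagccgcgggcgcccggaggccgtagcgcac
Fasn: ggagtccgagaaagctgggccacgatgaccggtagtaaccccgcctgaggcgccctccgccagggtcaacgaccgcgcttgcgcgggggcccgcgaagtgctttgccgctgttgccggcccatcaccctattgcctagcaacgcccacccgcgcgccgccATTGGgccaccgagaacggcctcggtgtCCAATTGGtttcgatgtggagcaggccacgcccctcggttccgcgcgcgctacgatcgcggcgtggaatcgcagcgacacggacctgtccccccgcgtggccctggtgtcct
The Acly window held 4 GC boxes and 1 CCAAT box, the Fads2 window 1 GC box and 0 CCAAT boxes, and the Fasn window 3 CCAAT boxes, of which 2 overlap on opposite strands, and 0 GC boxes. CCAAT was found in 37.4% and GGGCGG in 35.7% of 32851 promoter windows of the same length. The sterol regulatory letters TCACNCCAC were found in 0 of the 7 windows and in 1.24% of all windows, and the E-box CACGTG in 1 of the 7, that of Elovl5, and in 7.15% of all. The Acaca window (chr11:84195188-84195487, plus strand) lies inside the annotated gene, which starts at 84129672, so it is a window at an internal start and not at the first exon. The Fads2 window, at a RefSeq start, also lies inside the annotated gene but for its first few bases. On the minus strand that gene begins at 10101746, so the Fads2 GC box lies downstream of the annotated start. These are matches of letters in short windows and do not locate a binding site. Acly and Fads2, which moved together, shared only the GC box among the letters searched in these windows, and for Fads2 most of the region before the annotated start was not searched.

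Per kilobase of merged exons (RPKM), the desaturase Scd2 had the highest mean level over the 16 tumors at 171 ± 51.6 (SD, n = 16) RPKM, followed by Scd1 at 67.5 ± 77.2 and Acly at 54.0 ± 17.1 RPKM. Fads1 (36.7 RPKM), Acsl3 (26.0), Elovl5 (23.5), Fasn (22.3), Fads2 (16.3) and Elovl6 (12.1) followed, and Acaca was lowest at 6.28 ± 1.72 RPKM. Scd1 and Acly, and neighbours from Acsl3 down to Elovl6, differed by less than the larger of their SDs. The place of Scd1 depended on the group. Its median was 50.7 RPKM for the IgG controls and 34.6 RPKM for the non-responders, below Scd2 at 207 and 155 RPKM, whereas responders 15 and 16 had 341 and 134 RPKM of Scd1 against 112 and 83.0 RPKM of Scd2.

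The comparison of responders with non-responders asked what distinguished treated tumors with T cell infiltration. Scd1 rose, Fads1 fell, and the enzymes of palmitate synthesis did not pass the test. Scd1, the main fat tissue desaturase, reached 1667 CPM in responder 15 and 658 CPM in responder 16. In the non-responders it was 134 at the lowest, 169 at the median and 247 CPM at the highest, and in the IgG controls 88.5, 248 and 304 CPM. Both responders were thus above all other tumors, and they differed 2.54-fold between themselves. The log2 fold change against non-responders was 2.69 ± 0.33 (SE), or 6.45-fold, with an adjusted p of 1.8e-05 in edgeR's quasi-likelihood test. Leaving out each tumor in turn gave 1.80 to 3.16 on the log2 scale, with adjusted p from 7.7e-07 to 0.0067. Of its 31-base words 8.14% occur in other genes, mostly Scd3, which was measured at no more than 0.561 CPM in any tumor.

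Scd2, the other stearoyl-CoA desaturase, had the opposite direction. Its level was 611 CPM in responder 15 and 454 CPM in responder 16, against 747, 844 and 1061 CPM (lowest, median, highest) in the non-responders. The groups did not overlap, but the log2 fold change of -0.73 ± 0.28 did not pass the test (adjusted p = 0.080). It passed without IgG control 1 (log2 fold change -0.80, adjusted p = 0.010), without the 3 tumors of high mitochondrial share (-0.66, adjusted p = 0.022) and in DESeq2 (adjusted p = 0.035). It did not pass when any other IgG control or any non-responder was left out, as without non-responder 14 (-0.67, adjusted p = 0.13). Over all tumors left out in turn the change was -1.03 to -0.59. As a result of the opposite directions, the ratio of Scd1 to Scd2 CPM was 2.73 and 1.45 in the responders and 0.133 to 0.331 in the other 14 tumors. This ratio was formed after the values were seen and is given without a test.

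Fads1, the delta-5 desaturase of polyunsaturated fatty acids, was 116 CPM in responder 15 and 93.7 CPM in responder 16. In the non-responders it was 155, 161 and 225 CPM (lowest, median, highest), and in the IgG controls 154, 202 and 229 CPM, so both responders were below all 14 other tumors. The log2 fold change against non-responders was -0.76 ± 0.20 (adjusted p = 0.012). It did not pass without responder 16 (-0.66, adjusted p = 0.11). Fads2, the delta-6 desaturase, was 30.4 and 28.1 CPM in the responders and 19.3 to 59.9 CPM in the non-responders, and these groups overlapped (log2 fold change -0.53 ± 0.58, adjusted p = 0.60). The overlap came from non-responders 9 and 14, at 19.3 and 21.9 CPM, both of high mitochondrial share. Without them and IgG control 1, Fads2 fell by 0.92 on the log2 scale (adjusted p = 0.0036). These tumors were left out after the data were seen. Non-responders 9 and 14 are the lowest of their group for Fads2, so leaving them out widens the difference by itself. The fit is therefore no separate evidence of a fall. In it 5802 of 17822 tested genes passed, against 3599 of 18251 in the main fit.

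Among the other members, Acsl3, a long-chain acyl-CoA synthetase of the endoplasmic reticulum and lipid droplets, was 59.5 and 70.6 CPM in the responders and 88.7 to 135 CPM in the non-responders. The groups did not overlap, and the log2 fold change of -0.74 ± 0.31 had an adjusted p of 0.11. It passed without IgG control 1 (adjusted p = 0.0018) and without the 3 tumors of high mitochondrial share (-0.82, adjusted p = 0.0026). It did not pass when any other IgG control or any non-responder was left out, as without non-responder 12 (-0.66, adjusted p = 0.16). Over all tumors left out in turn the change was -0.92 to -0.66. Acly was 221 and 252 CPM in the responders and 158 to 303 CPM in the non-responders (log2 fold change -0.04 ± 0.37). Acaca was 95.7 and 114 CPM against 66.6 to 109 CPM (0.25 ± 0.28), and Fasn was 213 and 267 CPM against 188 to 255 CPM (0.16 ± 0.20). Elovl5 had a log2 fold change of 0.11 ± 0.16 and Elovl6 one of -0.24 ± 0.32. For these 5 genes the groups overlapped and the adjusted p lay between 0.60 and 0.96. In all, 1 of 10 genes passed higher and 1 of 10 lower, where 15.4% of all tested genes passed higher and 4.34% lower (19.7% in either direction). The median log2 fold change of the 10 was -0.14, and that of all tested genes 0.02. Of the 10 genes, 1 lay above and 3 lay below without overlap, where 21.5% of all tested genes lay above and 13.2% below.

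**Figure D1:**
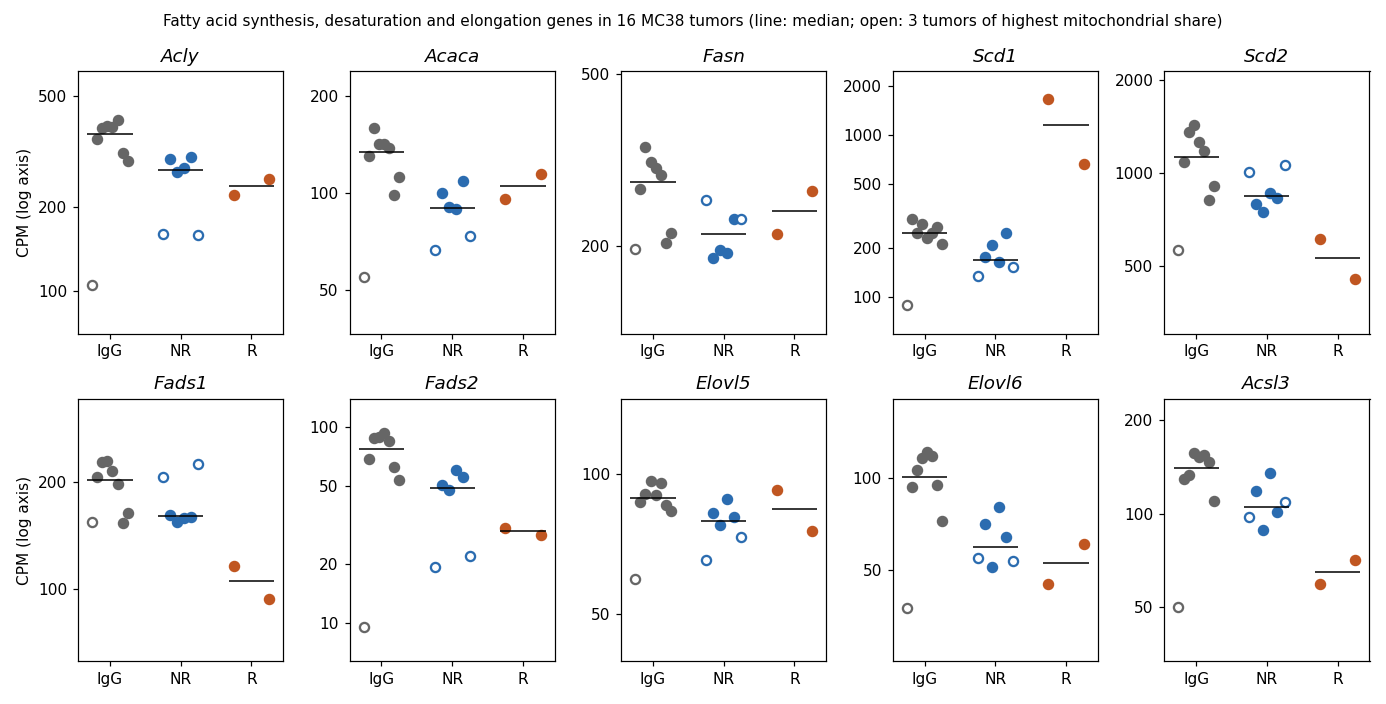
Level of each of the 10 genes in the 16 tumors, in CPM on a log axis, by group (IgG, IgG control; NR, non-responder; R, responder), with 1 point per tumor and a line at the group median. Open points are the 3 tumors of highest mitochondrial share. The responders stand above all other tumors for Scd1 (658 and 1667 CPM) and below them for Fads1 (93.7 and 116 CPM), and IgG control 1 is the lowest of the IgG controls for all genes but Fads1.

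Against the IgG controls, 1 of the 10 genes rose and 3 fell in the responders. Background shares were 17.7% of all tested genes higher and 5.17% lower (22.9% in either direction). Scd1 rose by 2.31 ± 0.31 on the log2 scale (4.95-fold, adjusted p = 3.6e-05). Fads1 fell by 0.88 on the log2 scale (SE 0.20, adjusted p = 0.0032), Scd2 fell by 1.01 (SE 0.28, adjusted p = 0.014) and Acsl3 fell by 0.99 (SE 0.30, adjusted p = 0.026). The Scd2 and Acsl3 calls were lost without responder 15 (adjusted p = 0.055 and 0.24) and without responder 16 (0.13 and 0.069). Scd1 lay above and Fads1 below all IgG controls, where 19.3% of all tested genes lay above and 9.67% below; the other 8 overlapped. For Scd2 and Acsl3 the overlap was with IgG control 1 alone, at 562 and 50.1 CPM, since the next lowest IgG controls were at 816 and 109 CPM. Elovl6, which extends palmitate to stearate, had a log2 fold change of -0.85 ± 0.32 (adjusted p = 0.069), and Fads2 one of -1.23 ± 0.59 (adjusted p = 0.16). Without IgG control 1, 7 of the 10 genes passed: Scd1 higher, and Acly, Scd2, Fads1, Fads2, Elovl6 and Acsl3 lower. IgG control 1 was the lowest IgG control for the lower genes other than Fads1, so leaving it out lowers their changes by itself. The same 7 passed without the 3 tumors of high mitochondrial share and with that share as a covariate. Over all tested genes the number that passed rose as well, from 4175 of 18251 in the main fit. It was 5682 of 18104 without IgG control 1, 7409 of 17822 without the 3 tumors and 6729 of 18251 with the covariate. The median log2 fold change of the 10 was -0.66 and that of all tested genes -0.02. This comparison and the one before it use the same 2 responders.

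**Figure D2:**
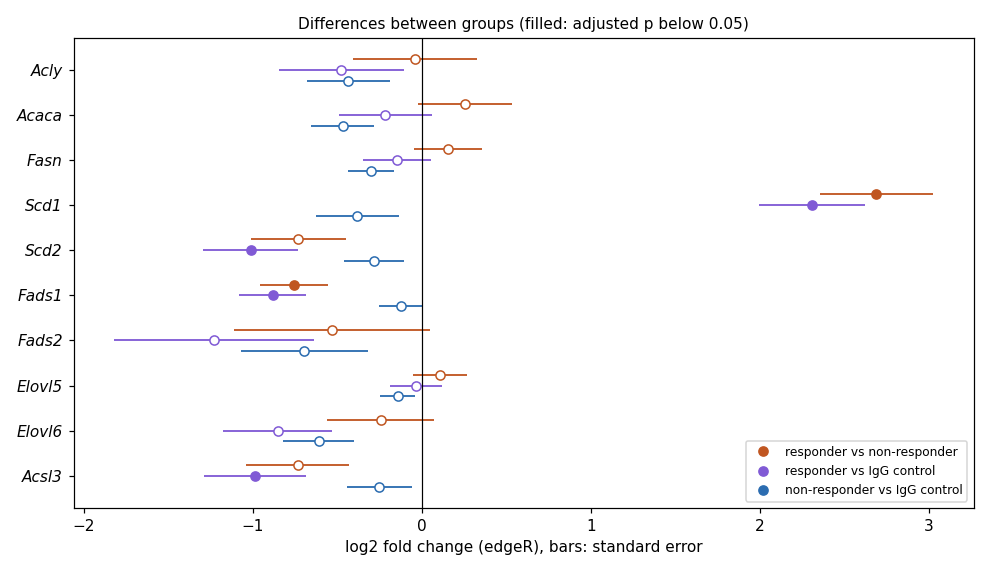
Log2 fold change of each gene in 3 comparisons, with standard errors as bars and filled points where the adjusted p was below 0.05. Scd1 lies at 2.69 and 2.31 when responders were compared, the other 9 genes lie between -1.23 and 0.25 there, and all 10 lie between -0.70 and -0.13 for non-responders against IgG controls.

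Treatment was compared next. In non-responders against IgG controls, 0 of the 10 genes passed the adjusted threshold in edgeR, as did 0 of all tested genes (0.00%); DESeq2 passed 0 of the 10 and 10 genes in all. At an unadjusted p below 0.05 edgeR gave 3 of the 10 (694 of all tested genes). All 10 fitted changes were negative, with a median of -0.34 against -0.01 over all tested genes. The 3 genes were Elovl6 (log2 fold change -0.61 ± 0.21), Acaca (-0.47 ± 0.19) and Fasn (-0.30 ± 0.14), each with an adjusted p of 0.99. Elovl6 was 51.0, 59.4 and 80.2 CPM (lowest, median, highest) in the non-responders and 37.5, 101 and 122 CPM in the IgG controls. Acaca, which makes malonyl-CoA, was 66.6, 89.7 and 109 CPM against 55.0, 134 and 159 CPM. Fasn was 188, 213 and 255 CPM against 196, 281 and 339 CPM. For all 10 genes the groups overlapped, where 0.0219% of all tested genes lay below and 0.0164% above without overlap. IgG control 1 was the lowest IgG control for 9 of the 10, and without it these 9, all but Fads1, had a negative change at an unadjusted p below 0.05, where 7.98% of all tested genes did (1.24% with it). Their adjusted p then ranged from 0.058 for Elovl6 (log2 fold change -0.72 ± 0.14) to 0.24 for Elovl5 (-0.20 ± 0.08), so 0 of the 10 passed the adjusted threshold, as against 0.0387% of all genes tested in that fit. Fads1 had an adjusted p of 0.49 in that fit. Leaving out the lowest control makes the changes of those 9 genes more negative by itself. The 7.98% is over genes not chosen by that control, so it is no even background for the 9. Many of the 9 also varied together over the tumors, so they are not 9 separate results.

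In the randomized comparison of all 8 aPD-1 tumors with the 8 IgG controls, edgeR passed 0 of the 10 genes and 0 of all tested genes (0.00%), DESeq2 passed 0 of the 10 and 134 genes in all, and 4 of the 10 had an unadjusted p below 0.05 in edgeR (2463 of all tested genes), all lower, where 2.24% of all tested genes were. Those 4 were Elovl6 (log2 fold change -0.67 ± 0.19, adjusted p = 0.16), Fads2 (-0.81 ± 0.35), Acaca (-0.40 ± 0.17) and Scd2 (-0.43 ± 0.19). Scd1 was the only member with a positive change (0.86 ± 0.50, adjusted p = 0.49), and this value was 0.06 in DESeq2 and 0.05 without responder 15. Against the same controls the non-responders alone gave -0.38 ± 0.24 and the responders alone 2.31 ± 0.31.

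The genes fell into 2 sets by how they varied over the 14 tumors without the responders. Acly, Acaca, Scd1, Fads2, Elovl5, Elovl6 and Acsl3 correlated with each other at a Pearson r of 0.78 to 0.99 (median 0.90 over 21 pairs, n = 14 tumors). Fasn, Scd2 and Fads1 correlated with each other at 0.87 to 0.90 (3 pairs). Between the sets r was 0.23 to 0.78, with a median of 0.49 over 21 pairs. The sets were drawn after the values were seen, the points share their library and scaling, and no test is given. The division goes with the 3 tumors of high mitochondrial share. IgG control 1 and non-responders 9 and 14 lay below the other 11 tumors without overlap for Acly (105 to 159 against 267 to 411 CPM), Acaca (55.0 to 73.4 against 89.0 to 159 CPM), Scd1 (88.5 to 153 against 163 to 304 CPM), Fads2 (9.50 to 21.9 against 47.3 to 92.8 CPM) and Elovl5 (59.4 to 73.3 against 77.6 to 96.9 CPM). They overlapped with the other 11 for Fasn (196 to 255 against 188 to 339 CPM), Scd2, Fads1, Elovl6 and Acsl3. How many of all tested genes lay below without overlap in these 3 tumors was not counted. The low levels are therefore not shown to be particular to these genes. Over those 11 tumors the division was not seen: r between the sets was 0.51 to 0.97 (median 0.86), against 0.32 to 0.95 (median 0.82) within the set of Acly and 0.95 to 0.98 within that of Fasn. The ratio of Fads2 to Fads1 CPM was 0.0614, 0.0937 and 0.0976 in the 3 tumors and 0.262 to 0.431 in the other 13. The part of the mitochondrial share in these levels was not tested.

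**Figure D3:**
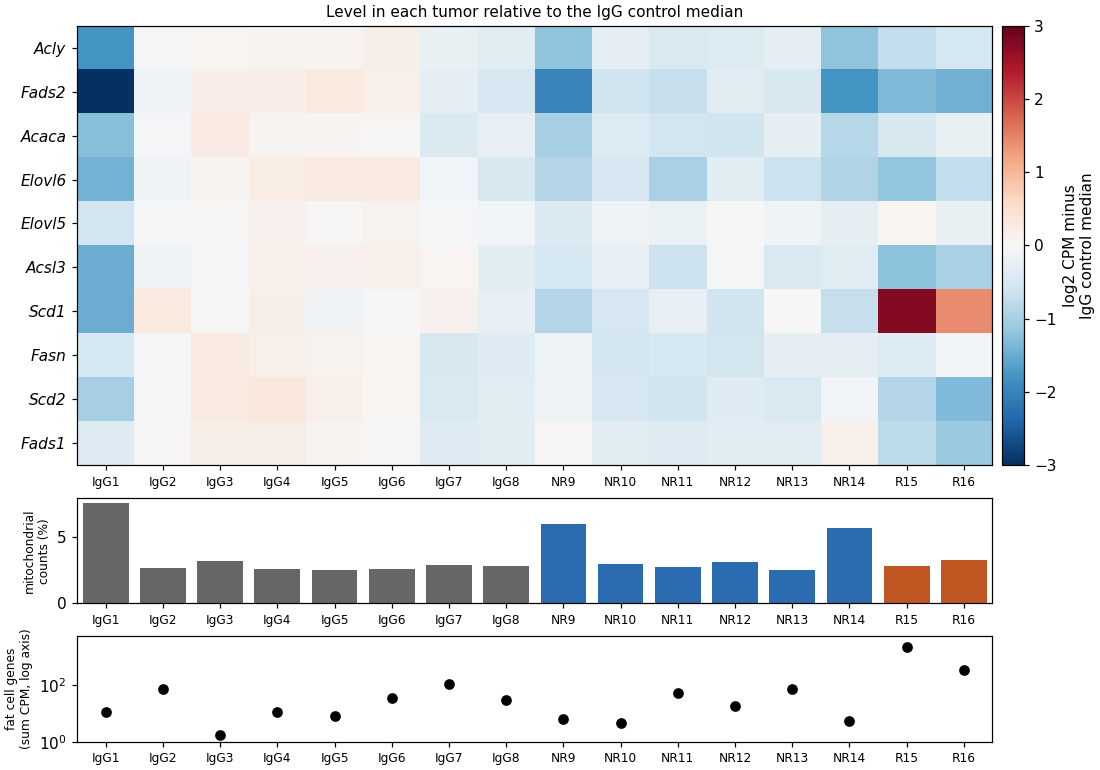
Log2 CPM of each gene in each tumor relative to the IgG control median (color), above bars of the mitochondrial share of counts in percent and points of the summed CPM of 8 fat cell genes on a log axis. Numbers are replicates. IgG 1, NR 9 and NR 14, with mitochondrial shares of 7.60%, 6.00% and 5.73%, are lowest for Acly and Fads2 in their groups, and R 15 and R 16 are high for Scd1 and for the fat cell genes (2043 and 326 CPM).

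The gene with the most similar pattern over all 16 tumors, among 13943 genes that averaged 1 CPM or more, was found by Pearson correlation of log2 CPM and is given for 8 of the members. For Acsl3 it was Fdps, farnesyl diphosphate synthase (r = 0.97). For Scd2 it was Fads1 (0.93). For Fads2 it was Cyb5b, an outer mitochondrial membrane cytochrome b5 (0.98), for Acly it was Vcp, an AAA ATPase of protein quality control (0.98), and for Elovl5 it was Hadh, an enzyme of fatty acid oxidation (0.95). For Acaca it was Arhgap35 (0.95) and for Fasn it was Cad, an enzyme of pyrimidine synthesis, at the lowest value of these (0.83). For Scd1 it was Rel, an NF-kappaB subunit abundant in lymphocytes (0.97), followed by Dgat2, an enzyme of triglyceride synthesis (0.96). Values for Scd1 are set largely by the 2 responders, which differed from the other tumors in fat, B cell and T cell RNA together. For Acaca, 33.4% of the 31-base words occur in other genes, mostly the gene model Gm5182, and its expected count was not whole in 15 tumors, so its values carry an uncertainty of read assignment. The shares were 6.81% for Scd2, 6.41% for Elovl6, 4.22% for Acsl3 and 0.729% for Fads2, and 0 for Acly, Fasn, Fads1 and Elovl5.

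The fat cell content of the tumors was then related to each gene. With the group as a covariate, 0 of the 10 genes had a slope on the fat cell score that passed in edgeR, where 0.849% of all tested genes did, and 0 of the 10 had one at an unadjusted p below 0.05 (2049 of all tested genes). In DESeq2 0 of the 10 passed. With the mitochondrial share as a further covariate, 9 of the 10 slopes were negative and 6 of the 10 genes had an unadjusted p below 0.05. Without the 3 tumors of high mitochondrial share and without IgG control 1 there were 4 such genes each. In these 3 fits 0 of the 10 passed the adjusted threshold, where 82, 108 and 172 of all tested genes did. How many of all tested genes had an unadjusted p below 0.05 in these 3 fits was not counted. The counts of 6 and 4 therefore have no background to be read against. Scd1 had the steepest positive slope, 0.14 ± 0.07 log2 units per unit of score (unadjusted p = 0.0502, adjusted p = 0.45). Fasn (-0.07 ± 0.04), Scd2 (-0.07 ± 0.05) and Fads1 (-0.07 ± 0.04) had negative slopes with adjusted p of 0.49 to 0.64. Without the responders the slopes were 0.10 ± 0.06 for Scd1 (adjusted p = 0.55) and -0.09 ± 0.04 for Fads1 (unadjusted p = 0.026, adjusted p = 0.43). Without the group term 3 of the 10 passed: Scd1 at 0.32, Scd2 at -0.12 and Fads1 at -0.11 per unit of score. In that fit the group differences enter the slope, since both responders have the highest scores.

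Because the responders form a separate cluster in fat cell score, correlations were computed without them and within groups, 10 relations in each set of tumors, one a gene. Over the 14 other tumors Scd1 had a Pearson r of 0.42 (permutation p = 0.13) and a Spearman rho of 0.54 (permutation p = 0.049) with the score. Within the 6 non-responders its r was 0.85 (exact permutation p = 0.038) and its rho 0.60 (exact permutation p = 0.24), and within the 8 IgG controls 0.26 (exact permutation p = 0.54) and 0.55 (exact permutation p = 0.17). Fads1 had an r of -0.52 (permutation p = 0.059) and a rho of -0.54 (permutation p = 0.049) over the 14 tumors. Its r was -0.64 in the non-responders (exact permutation p = 0.17) and -0.53 in the IgG controls (exact permutation p = 0.17). Over the 11 tumors left without those of high mitochondrial share, r was 0.34 for Scd1 (permutation p = 0.31) and -0.51 for Fads1 (permutation p = 0.11). These p-values are not adjusted for the 10 relations; the adjusted values of the slopes above, over all tested genes, did not pass.

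**Figure D4:**
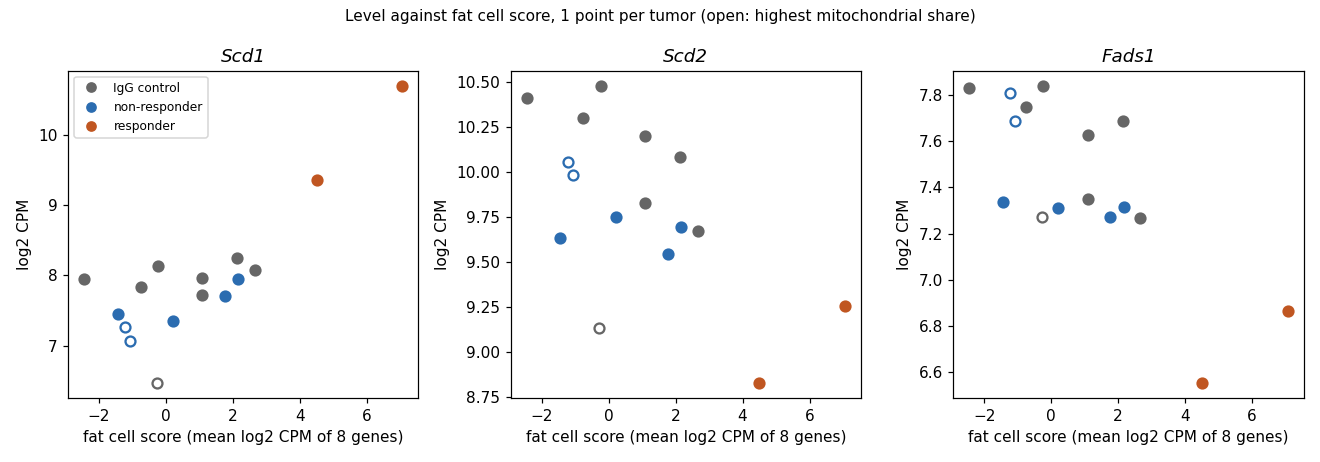
Log2 CPM of Scd1, Scd2 and Fads1 against the fat cell score of each tumor, the mean log2 CPM of 8 fat cell genes, with 1 point per tumor colored by group and open points for the 3 tumors of highest mitochondrial share. The responders lie alone at scores of 4.50 and 7.06, with the highest Scd1 and the lowest Fads1 levels.

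With the fat cell score as a covariate, 0 of the 10 genes passed between responders and non-responders in edgeR, where 2.75% of all tested genes did, and Scd1 was the 1 gene of 10 with an unadjusted p below 0.05 (2671 of all tested genes). Scd1 had a log2 fold change of 1.84 ± 0.51, or 3.59-fold, against 2.69 without the covariate (adjusted p = 0.070). It passed with Adipoq alone as the score (2.09, adjusted p = 0.019), without the 3 tumors of high mitochondrial share (1.90, adjusted p = 0.0084), without IgG control 1 (1.88, adjusted p = 0.0050) and without responder 16 (2.45, adjusted p = 0.036). Over all tumors left out in turn it ranged from 1.36 to 2.45, with adjusted p from 0.0050 to 0.34. Fads1 changed from -0.76 to -0.36 ± 0.29 (adjusted p = 0.62) and Scd2 from -0.73 to -0.31 ± 0.42 (adjusted p = 0.79). The score of the responders lies outside the range of the other tumors, so this fit extends the slope beyond the data of the other groups, and fat cell RNA and response cannot be told apart with these tumors.

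The 2 responders differed in fat cell content, which gives a comparison within the group without a test. Adipoq, the fat cell hormone adiponectin, was 189 CPM in responder 15 and 31.02 CPM in responder 16, a 6.08-fold difference, and the 8 fat cell genes differed 3.49-fold to 13.3-fold. Scd1 differed 2.54-fold in the same direction. The other 9 genes differed little and in both directions, from 0.740-fold for Elovl6 and 0.795-fold for Fasn to 1.24-fold for Fads1 and 1.346-fold for Scd2. Fat was not the only difference between responders 15 and 16. Summed B cell (908 and 242 CPM), epithelial (116 and 50.4 CPM) and endothelial markers (332 and 188 CPM) were also higher in responder 15. Proliferation, skeletal muscle and brown fat markers summed lower in it. The part of each in the Scd1 difference was not tested. Per CPM of Adipoq there were 8.84 CPM of Scd1 in responder 15 and 21.2 CPM in responder 16. The next lowest value was 29.5 in IgG control 7, which had the highest fat cell score outside the responders.

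Other genes of the pathway were read from a list of 38, of which 37 were tested (Elovl2 was not). Between responders and non-responders 8 rose, 2 fell and 27 did not pass, where 15.4% of all tested genes rose and 4.34% fell. The median log2 fold change was 0.11 against 0.02 over all tested genes. Of the 4 genes listed under substrate supply, a loose label for Acacb, 2 rose. Acacb, the mitochondrial acetyl-CoA carboxylase, rose by 2.76 ± 0.48 (adjusted p = 0.00048). It was 7.69 and 4.72 CPM in the responders and at most 1.25 CPM in the non-responders. Acss2, which makes acetyl-CoA from acetate, rose by 0.80 ± 0.23 (adjusted p = 0.023). Of 5 glycerolipid genes, Dgat2, which completes triglycerides, rose by 2.95 ± 0.33 (46.7 and 20.9 CPM against 2.47 to 6.58 CPM; adjusted p = 5.9e-06), and Gpam, the first acyltransferase of the route, rose by 1.56 ± 0.46 (adjusted p = 0.023). Of 4 activating enzymes, Acsl1, the main synthetase of fat tissue, rose by 1.77 ± 0.26 (123 and 44.3 CPM against 18.7 to 29.4 CPM; adjusted p = 8.8e-05) and Acsl6 fell by 1.52 on the log2 scale at under 2 CPM (adjusted p = 0.016). Of 5 desaturation genes, Scd4 fell by 1.40 on the log2 scale at under 3 CPM (adjusted p = 0.038). Of 9 tested elongation genes, 0 passed in edgeR.

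Among the 10 regulators, 3 rose between responders and non-responders. Thrsp, a lipogenic protein of fat and liver, was 18.6 and 25.1 CPM in the responders and at most 1.23 CPM in the non-responders (log2 fold change 5.57 ± 1.12, adjusted p = 0.0018). Mlxipl was 12.98 and 2.33 CPM against 0.304 to 0.576 CPM (4.26 ± 0.83, adjusted p = 0.0014), and Nr1h3 was 20.6 and 12.1 CPM against 2.17 to 7.43 CPM (2.05 ± 0.36, adjusted p = 0.00065). Nr1h3 is also expressed by macrophages, whose 6 markers summed to 1177 and 1293 CPM in the responders and 859 to 1282 CPM in the non-responders. Of these markers, Mrc1 (126 to 206 against 25.8 to 83.3 CPM) and Csf1r (190 to 204 against 121 to 186 CPM) were higher in the responders without overlap. Adgre1, Cd68, C1qa and C1qb overlapped. The part of macrophages in the Nr1h3 level was not tested. Srebf1 was 82.6 and 51.8 CPM in the responders and 58.8 to 77.5 CPM in the non-responders (-0.04 ± 0.19, adjusted p = 0.93). Srebf2 was 95.5 and 72.4 CPM against 78.7 to 120 CPM (-0.18 ± 0.21, adjusted p = 0.64). Neither SREBP gene passed in any of the 6 comparisons, a result on RNA levels only, as these factors are controlled mainly by protein cleavage.

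**Figure D5:**
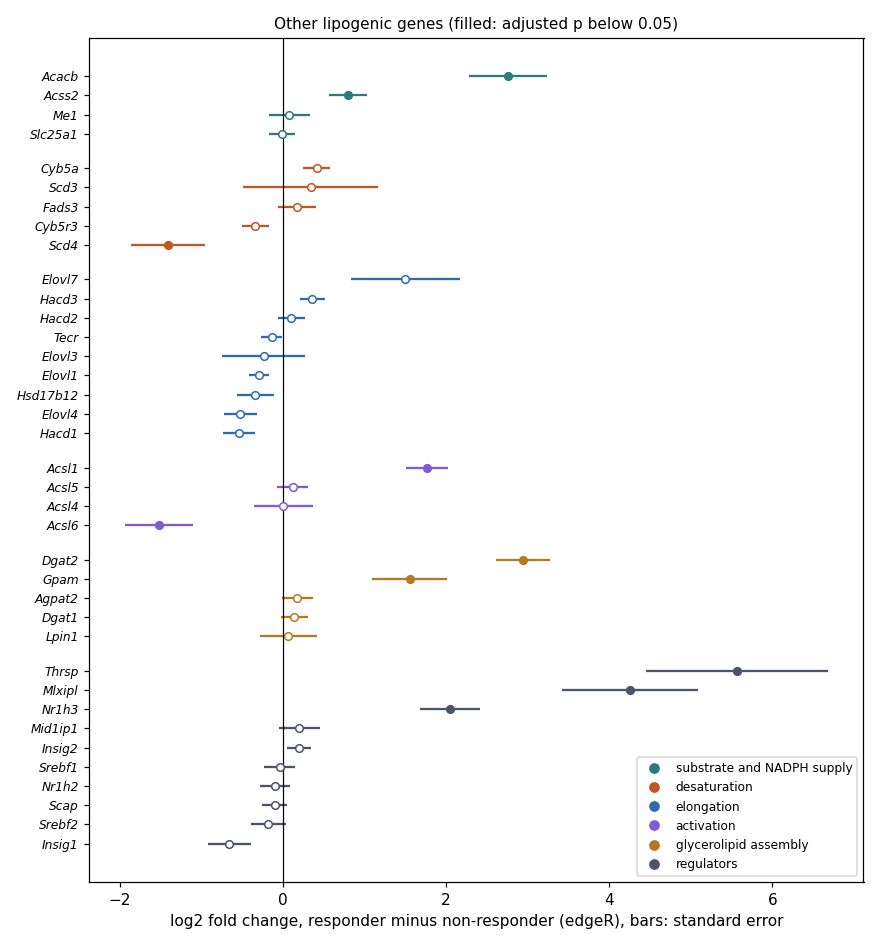
Log2 difference of responders from non-responders for the 37 tested genes from the list of other lipogenic genes, grouped by role, with standard errors as bars and filled points where the adjusted p was below 0.05. Thrsp (5.57), Mlxipl (4.26), Dgat2 (2.95) and Acacb (2.76) lie farthest to the right, and Srebf1 (-0.04) and Srebf2 (-0.18) lie near 0.

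Against the IgG controls the same list gave 7 genes higher (Acacb, Cyb5a, Acsl1, Dgat2, Mlxipl, Nr1h3 and Thrsp) and 4 lower (Elovl1, Elovl4, Acsl6 and Insig1), where 17.7% of all tested genes were higher and 5.17% lower. Insig1, which holds SREBP in the endoplasmic reticulum and is itself an SREBP target, fell by 0.84 on the log2 scale (53.1 and 50.3 CPM against 52.9 to 118 CPM; adjusted p = 0.026). For non-responders against IgG controls and for all aPD-1 tumors against IgG controls, 0 of the 37 passed in edgeR, with 2 and 7 at an unadjusted p below 0.05. Over all 18251 tested genes, 694 and 2463 had such a p. On the fat cell score with the group as a covariate, Thrsp alone passed (slope 0.83 ± 0.19, adjusted p = 0.049). With the score as a covariate, Dgat2 alone passed between responders and non-responders (2.27 ± 0.51, adjusted p = 0.024). Genes of brown fat, sebaceous gland and milk-producing epithelium, which also make fatty acids, gave the responders 0.769 and 0.787 CPM, 4.70 and 5.08 CPM, and 2.84 and 7.12 CPM in summed level. The other tumors had at most 1.82, 10.8 and 1.18 CPM, so of these lists the milk-producing one was higher in both responders, through Csn3, the only one of its genes that passed the low count filter. Ucp1, which defines brown fat, was at 0 in both responders, but it was also at most 0.0380 CPM in the IgG controls and 0.169 CPM in the non-responders. Cidea of the same list went the other way, at 0.177 to 0.225 CPM in the responders and at most 0.0562 CPM elsewhere. Ppara and Cox7a1 overlapped with the IgG controls. All of these levels are low. Skeletal muscle genes summed to 3.28 and 12.3 CPM and keratinocyte genes to 7.26 and 9.58 CPM in the responders, within the range of the other tumors.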

How the data were processed

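Bulk RNA-seq of 16 MC38 tumors, 1 per mouse, was used. Reads were aligned by the authors with STAR 2.6 (GRCm38, Ensembl release 91). The deposited table holds expected counts from RSEM 1.3.0, of which 7.83% were not whole. They were rounded to whole numbers. The 92 entries that name no gene held at most 185 counts in a tumor and were left out. GENCODE mouse release 21 named 53274 of the 53465 identifiers. The 10 genes and all gene lists were chosen with earlier results of these data known.

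Tests used edgeR 4.0.16 in R 4.3.3, with TMM scaling, filterByExpr on the 3 groups, robust dispersions and quasi-likelihood F tests, all tumors being fitted together. The standard errors given for edgeR are approximate. Each is the absolute log2 change or slope divided by the square root of its F statistic, not an error from the fit itself. P-values were adjusted by Benjamini-Hochberg over 18251 genes, and genes passed at an adjusted p below 0.05. CPM were counts relative to TMM-scaled total counts (prior count of 2 where logged), and RPKM were CPM per kilobase of merged exons. Replicates are separate mice. Correlations used 100000 permutations, or all orders within groups, two-sided. Named genes were the 10 members, other lipogenic genes that passed a test, 4 main regulators, and the gene most correlated with each member, which for Elovl6 and Fads1 is not reported here. Alternatives were DESeq2 1.42.0, other size factors, other filters, 2 groups only, the fat cell score as a covariate, other scores, no group term and leaving out each tumor. Leaving out the 3 tumors of high mitochondrial share, or taking that share as a covariate, was added after the data were seen. The spatial and histology data of the study were not used here. The aPD-1 comparison drew on 8 against 8 tumors, while only 2 responders were at hand, so precision is lowest for them.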

Additional observations from a re-analysis of the deposited data

Results flagged for a closer look

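In 20 groups of 6 or 8 tumors (10 genes in IgG controls and in non-responders), the lowest or highest tumor was set against the others by its gap to the nearest tumor divided by the range of log2 CPM. Of these, 7 passed Dixon's 95% limit (0.526 for 8 tumors, 0.625 for 6), where chance flags about 1 in 20 groups. In all 7 the tumor was IgG control 1 as the lowest of 8: the ratio was 0.753 for Acly, 0.548 for Acaca, 0.703 for Scd1, 0.759 for Fads2, 0.692 for Elovl5, 0.558 for Elovl6 and 0.686 for Acsl3. These are the same 7 genes that varied together over the 14 tumors without responders, so the 7 are not independent of each other. The check was not run over all tested genes, so the flags are not shown to be particular to the 10. IgG control 1 had 9.50 CPM of Fads2 where the next lowest IgG control had 53.6, and 105 CPM of Acly where the next lowest had 293. It also had the highest mitochondrial share (7.60%) and the lowest total count (26603449). The part of either in the low levels was not tested.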

How the results depend on the processing

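Counts of the 10 genes that passed moved by over 1.5 times under few alternatives, and the cause was not tested. Between responders and non-responders the count of 2 became 4 with only those 2 groups in the fit (Scd2 and Acsl3 added), 0 with the fat cell score as a covariate, 5 without the 3 tumors of high mitochondrial share and 5 with that share as a covariate (Scd2, Fads2 and Acsl3 added in both), and 1 to 4 when each tumor was left out. Against IgG controls the count of 4 became 0 with the fat cell score, 7 without the 3 tumors, 7 with the share as a covariate and 2 to 7 when each tumor was left out. For the slope on the fat cell score, 0 became 3 without the group term. At equal fat cell score, 0 became 1 (Scd1) with Adipoq as the score, 1 without the 3 tumors and 0 to 1 when each tumor was left out. By Pearson's r, members at a permutation p below 0.05 with the score numbered 3 over 16 tumors and 0 without the 2 responders, the tumors farthest from the median score, and by Spearman's rho 2 in both. Over all genes the slope passed for 155 genes in edgeR, 518 in DESeq2 and 3970 without the group term. The group comparisons moved over all genes too. Between responders and non-responders 3599 passed, 501 with the fat cell score, 5802 without the 3 tumors and 5631 with the share as a covariate. Against IgG controls these counts were 4175, 789, 7409 and 6729. Between responders and non-responders, 3383 of 17651 genes passed with only those 2 groups in the fit. Without IgG control 1, where 4 of the 10 passed, it was 5046 of 18104. DESeq2, other size factors and other filters moved no count of the 10 genes that passed by over 1.5 times. The sign of single values turned in 30 fits, with no value past the threshold before or after. With the fat cell score as a covariate these were Elovl5 at -0.0122 (responders against non-responders), Fasn at 0.25 (against IgG controls) and Scd1 at -0.13 (aPD-1 against IgG controls). For Elovl5 the responder difference was -0.025 without the 3 tumors. Slopes turned for Acly (-0.0164) and Fads2 (-0.0828) without the group term, for Acly (-0.0451), Fads2 (-0.0687) and Elovl5 (-0.0059) without the 3 tumors, and for Acly (-0.0789), Fads2 (-0.13) and Elovl5 (-0.0188) with the share as a covariate. At equal fat cell score Elovl5 was 0.0346 with Adipoq as the score and 0.0060 without the 3 tumors, and Elovl6 0.0398 without them. When each tumor was left out, responders against non-responders ranged over -0.19 to 0.0322 for Acly, -0.12 to 0.19 for Elovl5 and -0.0735 to 0.24 for Fasn, and against IgG controls over -0.26 to 0.049 for Elovl5. Slopes ranged over -0.0481 to 0.0292 for Acaca and -0.0366 to 0.0015 for Acsl3, and differences at equal score over -0.16 to 0.13 for Elovl5, -0.36 to 0.0547 for Elovl6 and -0.62 to 0.0761 for Scd2. No paired analysis was possible because the groups share no replicate numbers. With 1 responder left, its spread was taken to be that of the other groups. Depth did not limit these genes, which had at least 9.50 CPM in each tumor, and only 2 responders were measured.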
